A study of Homo sapiens with 10 samples.

Results

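The clustered protocadherin genes are 53 protein-coding genes on chromosome 5 whose symbols start with PCDHA, PCDHB or PCDHG. They were taken by symbol from a RefSeq gene table of GRCh38.p14 that lists 20037 protein-coding genes on chromosomes 1 to 22, X and Y; the rule uses no H3K9me3 value. The alpha subcluster has 15 of them, the beta subcluster 16 and the gamma subcluster 22. H3K9me3, the trimethylation of lysine 9 on histone H3 that marks heterochromatin, was profiled by CUT&RUN, in which an antibody guides a nuclease to the marked chromatin and the released DNA is sequenced. The cells were BJ, an established human foreskin fibroblast line. The values below come from 1 list of 10536 H3K9me3 regions that the labels attach to all 3 samples given siRNA against ERH, a nuclear protein that the study's title names as a heterochromatin protein. The siRNA, for which the labels name 1 product, was used at 5 nM in 2 rounds, 3 days apart. These samples were not reprogrammed. The study also has 3 H3K9me3 samples given control siRNA, and 2 control and 2 ERH knockdown samples for SOX2 after Sendai virus delivery of OCT4, SOX2, KLF4 and c-MYC; their values were not analysed here.

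The list pools its samples and carries no values per sample and no read counts, so depth is unknown and no value below has a replicate error or a test. It shows where H3K9me3 was called after ERH knockdown and says nothing of whether a region was gained, lost or kept relative to control cells. A stretch with no region is a stretch where nothing passed the authors' calling, and is not evidence of an absence of the mark. The list holds no measure of RNA, so neither the fibroblast identity of the cells nor the activity of any gene could be checked in it.

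Clustered protocadherins are cell-surface adhesion proteins of the cadherin superfamily, best known from neurons, where each cell uses a small random choice of them and the combination serves as a surface identity for telling self from other. In the alpha and gamma subclusters each gene has its own promoter and variable exon, which is spliced to constant exons shared by the whole subcluster, so the annotated bodies of these genes all run to the same end and overlap each other. The beta genes lack the shared constant exons. CTCF and cohesin bring a chosen promoter to distant enhancers, and DNA methylation, SMCHD1 and the H3K9 methyltransferase SETDB1 are known to repress promoters of the clusters. The C-type genes at the ends of the alpha and gamma subclusters, such as PCDHAC2 and PCDHGC4, are known to be regulated apart from the others and less randomly.

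The results turn on which gene starts lay in a region, so the bases upstream of the relevant starts are shown first. PCDHA1 and PCDHB15 were the members whose start lay in an H3K9me3 region. PCDHA2 and PCDHB14 are the neighbouring member genes of the same subclusters, with starts outside any region. PCDHAC1 is shown as an example of the C-type genes, and its start sequence was the richest in G and C of the 4 that have one. Each line gives the 250 bases before the RefSeq start (GRCh38.p14), 5′ to 3′, and the capitals mark matches on the gene's strand to the letters ATGNTGNCGCT, in which N is any base. These letters are the ones that PCDHA1 and PCDHB15 share over the 11 bases that end at the CGCT nearest to the start, so a match in both is given by the choice.
PCDHA1 (chr5:140785890-140786139, plus strand): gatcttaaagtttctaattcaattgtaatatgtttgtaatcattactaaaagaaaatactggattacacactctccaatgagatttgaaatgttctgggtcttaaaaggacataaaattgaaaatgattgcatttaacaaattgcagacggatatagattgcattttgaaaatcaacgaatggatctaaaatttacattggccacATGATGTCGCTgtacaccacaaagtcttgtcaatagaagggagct
PCDHA2 (chr5:140794602-140794851, plus strand): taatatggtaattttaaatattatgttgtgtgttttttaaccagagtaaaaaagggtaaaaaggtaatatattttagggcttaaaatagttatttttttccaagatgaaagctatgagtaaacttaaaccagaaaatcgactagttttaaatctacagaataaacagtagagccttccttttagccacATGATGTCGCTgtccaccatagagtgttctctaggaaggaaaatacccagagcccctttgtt
PCDHB14 (chr5:141223093-141223342, plus strand): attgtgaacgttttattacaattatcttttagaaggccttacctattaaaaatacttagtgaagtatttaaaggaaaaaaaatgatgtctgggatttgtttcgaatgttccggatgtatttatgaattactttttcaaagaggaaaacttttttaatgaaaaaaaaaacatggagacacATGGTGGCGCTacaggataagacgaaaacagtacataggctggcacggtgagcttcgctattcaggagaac
PCDHB15 (chr5:141245145-141245394, plus strand): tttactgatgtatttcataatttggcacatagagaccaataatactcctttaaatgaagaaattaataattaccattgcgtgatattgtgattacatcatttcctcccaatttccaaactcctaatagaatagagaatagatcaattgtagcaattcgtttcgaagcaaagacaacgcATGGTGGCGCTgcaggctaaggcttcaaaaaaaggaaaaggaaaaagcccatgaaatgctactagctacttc
PCDHAC1 (chr5:140926049-140926298, plus strand): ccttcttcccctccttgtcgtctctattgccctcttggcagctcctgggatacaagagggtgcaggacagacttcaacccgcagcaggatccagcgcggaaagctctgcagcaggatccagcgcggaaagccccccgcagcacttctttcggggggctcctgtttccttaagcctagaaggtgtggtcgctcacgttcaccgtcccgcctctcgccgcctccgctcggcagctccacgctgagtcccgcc
The capitals read ATGATGTCGCT in both alpha genes that carry them here and ATGGTGGCGCT in both beta genes. PCDHA2 and PCDHB14, whose starts lay outside any region, carried the same 11 letters as their neighbours whose starts lay inside. Most members lack them. Among the members with a start sequence, a match was found in 8 of 13 alpha, 3 of 14 beta and 0 of 20 gamma genes. The match began 45 bases before the start in PCDHA1, 62 in PCDHA2, 71 in PCDHB14 and 72 in PCDHB15. PCDHAC1 has no match, and 63.2% of its 250 bases are G or C, against 31.6% in PCDHA1, 32.0% in PCDHA2, 33.6% in PCDHB14 and 35.2% in PCDHB15.

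Regions touched the alpha and beta subclusters and not the gamma subcluster. The alpha subcluster (chr5:140786140-141012347, 226 kb) was touched by 1 region, which covered 3282 bases or 1.45% of the span. The beta subcluster (chr5:141051374-141249365, 198 kb) was touched by 4 regions, which covered 16627 bases or 8.40%. The gamma subcluster (chr5:141330514-141512975, 182 kb) was touched by 0. For comparison, regions covered 1.86% of chromosome 5 and 1.63% of chromosomes 1 to 22, X and Y. The covered share was above the chromosome's in the beta subcluster and below it in alpha and gamma, but the shares depend on where the spans are cut. With 50 kb added on each side, which takes in the whole of the long region at the edge of alpha and of beta, the share was 10.8% in alpha, 15.4% in beta and 1.07% in gamma. The 50 kb added to gamma stopped just short of the long region at PCDHB15, which ended 51.7 kb before PCDHGA1. The gamma share therefore also depends on the length added. Over the whole stretch from the first to the last member it was 6.78%.

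**Figure D1:**
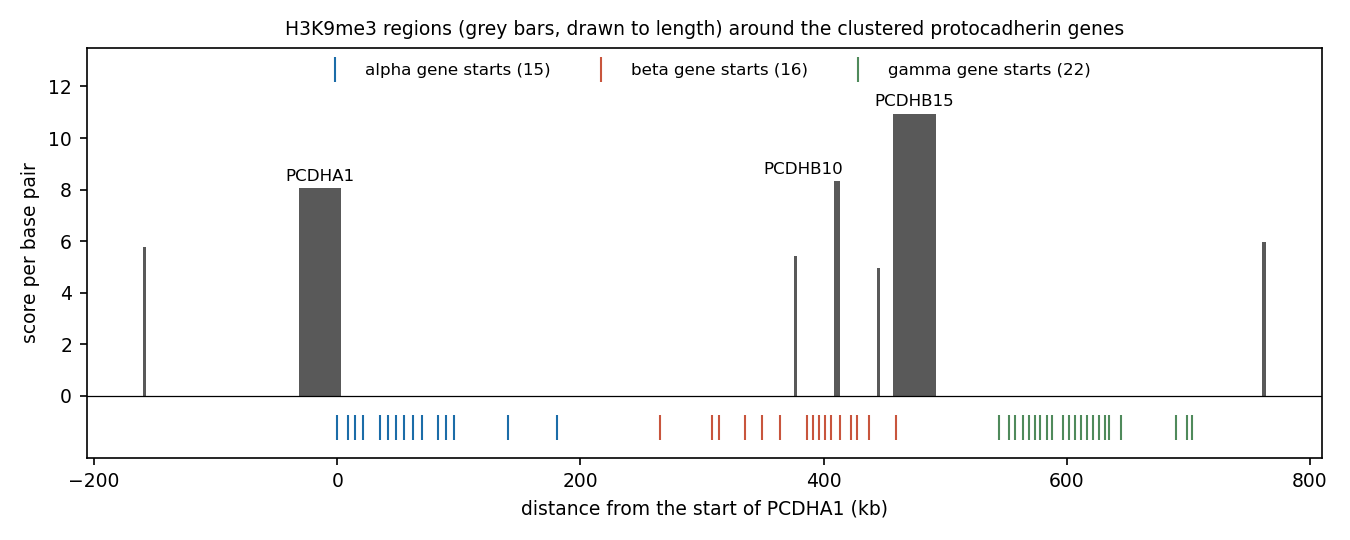
Positions of the 7 regions within 500 kb of the clusters, as distance from the start of PCDHA1 in kb; bar width is region length, bar height is the authors' score per base pair, and coloured ticks mark the 15 alpha, 16 beta and 22 gamma gene starts. The wide bars stand at PCDHA1 and PCDHB15, and no bar falls over the gamma gene starts.

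Of the 53 members, 3 shared at least 1 base with a region (5.66%), against 10.5% of all protein-coding genes. PCDHA1, PCDHB10 and PCDHB15 were these members. The comparison of gene bodies is a poor guide here, because the bodies of the alpha genes, and likewise those of the gamma genes, overlap each other and are mostly intron. Members covered over at least 10% of their body numbered 2 (PCDHB10 and PCDHB15), or 3.77% of the 53, against 2.40% of all protein-coding genes. With 5 kb added on each side of the body 6 of the 53 members met a region, against 2493 of all 20037 genes (12.4%), so these shares were close.

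Gene starts gave another picture. RefSeq start windows, from 250 bases before to 50 after an annotated start, were matched for 47 of the 53 members; PCDHA3, PCDHA13, PCDHB6, PCDHB11, PCDHGA12 and PCDHGC5 had none in the table. The window lay in a region for 2 of the 47 (PCDHA1 and PCDHB15, 4.26%), and all 300 bases of each were covered. Among all 15842 protein-coding genes with a window, 26 had one in a region, or 0.164%. With 2 kb on each side of the start the count was still 2 of the 47, against 0.783% of all genes; PCDHB11, which has no window, began 258 bases from a region. The 2 members sit at different subclusters, 459 kb apart, in separate regions. With 2 genes and no replicate list, the difference between these shares has no test. The set of all genes is also not matched to the members in sequence. Start windows held a median of 7 CG dinucleotides in the members and 22 in all genes, as given below.

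PCDHA1 is the gene at the upstream end of the alpha subcluster. The region at its start spanned chr5:140754320-140789421, 35.1 kb with a score of 282336 that the authors gave without a unit. It began 31.8 kb upstream of PCDHA1 and ended 3282 bases inside the gene, which leaves 5.43 kb to the start of PCDHA2. Of its length 9.35% lay in PCDHA1 and the rest upstream, where it also took in the whole of the pseudogene LOC100421074 and 8.04% of the long noncoding RNA gene LOC105378198. The nearest protein-coding gene upstream, ZMAT2, ended 47.6 kb before the region, and the nearest of the vault RNA genes, VTRNA1-3, ended 28.1 kb before it. The share of the PCDHA1 body that was covered, 1.45%, therefore hides that its start and the 3282 bases after it were covered without a break. The gene table has no exons, so the stretch was not assigned to the variable exon.

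PCDHB15 is the gene at the downstream end of the beta subcluster. The region over it spanned chr5:141243173-141278765, 35.6 kb with a score of 389734. It began 2222 bases before PCDHB15, covered all 3971 bases of the gene and ran on for 29.4 kb beyond its end. PCDHB15 was 1 of 7 protein-coding genes in the genome covered over their whole length, beside LOC107987020, OR1L4, OR10H4, KRTAP19-2, KRTAP6-2 and KRTAP22-1. The region also took in 34.1% of PCDHB19P, a pseudogene just upstream, and all of the pseudogene LOC100419552 and of the noncoding gene LOC105378199 downstream. It ended 23.9 kb before SLC25A2, a mitochondrial carrier gene, and 39.7 kb before TAF7, which encodes a subunit of a general transcription factor. Both genes lie between the beta and gamma subclusters, and neither overlapped a region.

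The long regions thus lay at an end of a subcluster in both cases and extended away from that subcluster. The PCDHA1 region reached upstream, away from the other alpha genes and from all other members. The PCDHB15 region reached downstream, away from the other beta genes and toward the gamma genes. Only the PCDHA1 region therefore lay at an end of the whole stretch of members. Read against each gene, the PCDHA1 region lay mainly before the start and the PCDHB15 region mainly beyond the end.

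The other 3 regions in the beta subcluster were short and lay mostly between genes. The region at chr5:141194810-141199368 (4559 bases, score 37936) filled most of the gap between PCDHB10 and PCDHB11. It covered the last 838 bases of PCDHB10, or 25.4% of that gene, began 2457 bases after its start, and stopped 258 bases short of the start of PCDHB11. The region at chr5:141161888-141164585 (2698 bases, score 14670) lay 2826 bases after the pseudogene PCDHB17P and 8058 bases before PCDHB7, and overlapped no annotated gene. The region at chr5:141229748-141232924 (3177 bases, score 15754) began 1988 bases after PCDHB14 and ended 1408 bases before the pseudogene PCDHB18P, again overlapping no gene. Of the bases covered within the beta span, 61.6% lay between genes, 28.9% in member genes and 9.50% in pseudogenes. As shares of each class, 7.36% of the 65.3 kb of member bodies, 14.2% of the 11.1 kb of pseudogenes and 8.42% of the remaining 122 kb were covered. That remainder is not all free of genes, since it includes part of the noncoding gene PCDHB1-AS1, which overlapped no region. Most of the covered member bases, 3971 of 4809, came from PCDHB15, and the other 838 came from PCDHB10.

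The treatment of reads that align to more than a single place is not given in the sources used here. Beta genes and their pseudogenes are similar in sequence, and the part this plays in the placement of the regions was not tested.

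The distance from a gene's first base to the nearest region varied in a regular way along the array, since few regions define it. In the alpha subcluster it rose gene by gene from 0 at PCDHA1 to 5.43 kb at PCDHA2, 92.7 kb at PCDHA13, 137 kb at PCDHAC1 and 177 kb at PCDHAC2, the farthest member. The beta subcluster had a median of 12.1 kb, with its highest value, 111 kb, at PCDHB1, the member nearest to the alpha genes, and low values from PCDHB6 to PCDHB15. The gamma genes ran from 51.7 kb at PCDHGA1 up to 134 kb at PCDHGA10 and down to 57.6 kb at PCDHGC5, with a median of 93.3 kb. The ranges of the subclusters overlap. Over the 47 members with a window the median distance was 65.1 kb, against 151 kb over all 15842 genes with a window, each taken at the start nearest to a region. Members share their nearest regions, so the 47 distances are not independent.

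**Figure D2:**
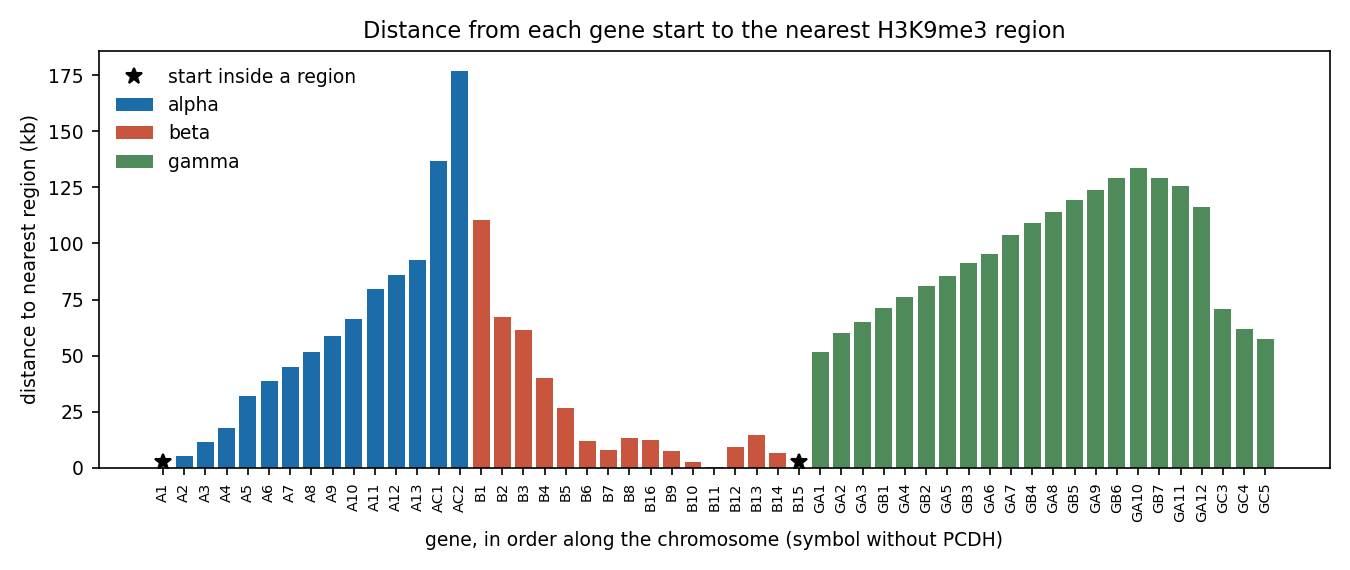
Distance in kb from the first base of each of the 53 genes to the nearest H3K9me3 region, with genes in chromosome order and coloured by subcluster; stars mark the genes whose start lies inside a region. The alpha distances rise from PCDHA1 to 177 kb at PCDHAC2, most beta distances are low, and every gamma gene start lies at least 51.7 kb from a region.

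A pair of long stretches free of regions held most of the starts. The stretch from the end of the PCDHA1 region to chr5:141161887 was 372 kb long and held 20 starts, from PCDHA2 to PCDHB6. The stretch from the end of the PCDHB15 region to chr5:141546691 was 268 kb long and held all 22 gamma starts. These lengths were longer than 79.0% and 69.6% of the 708 gaps between neighbouring regions on chromosome 5, whose median was 111 kb. Region-free stretches of this size were therefore common on the chromosome. The region that ends the second stretch (3035 bases, score 18108) lay in DIAPH1, the formin gene just beyond the gamma subcluster, and began 33.7 kb after the shared end of the gamma genes.

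The C-type genes all started in these stretches. PCDHAC1 and PCDHAC2 had the largest distances of the alpha genes, as given above. PCDHGC3 started 70.7 kb from a region, PCDHGC4 61.7 kb and PCDHGC5 57.6 kb, within the range of the other gamma genes.

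The regions at PCDHA1 and PCDHB15 were long for this list. By length they ranked 66 and 65 of 10536 regions, and 7 and 6 of the 709 on chromosome 5. Among the 10513 regions that are not pieces of a split region, the PCDHA1 region had a score above 98.5% of them and the PCDHB15 region above 99.0%. Scores grow with length, so the score per base pair was compared as well. It was 8.04 in the PCDHA1 region and 10.9 in the PCDHB15 region, above 67.0% and 90.6% of regions, against a list median of 6.97. The region at PCDHB10 had 8.32, and the 2 that overlap no gene had 5.44 and 4.96, both below the median. The latter also had scores in the lowest part of the list, above 9.09% and 14.2% of regions. The score is the authors' own and is used here only to rank regions within the list.

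**Figure D3:**
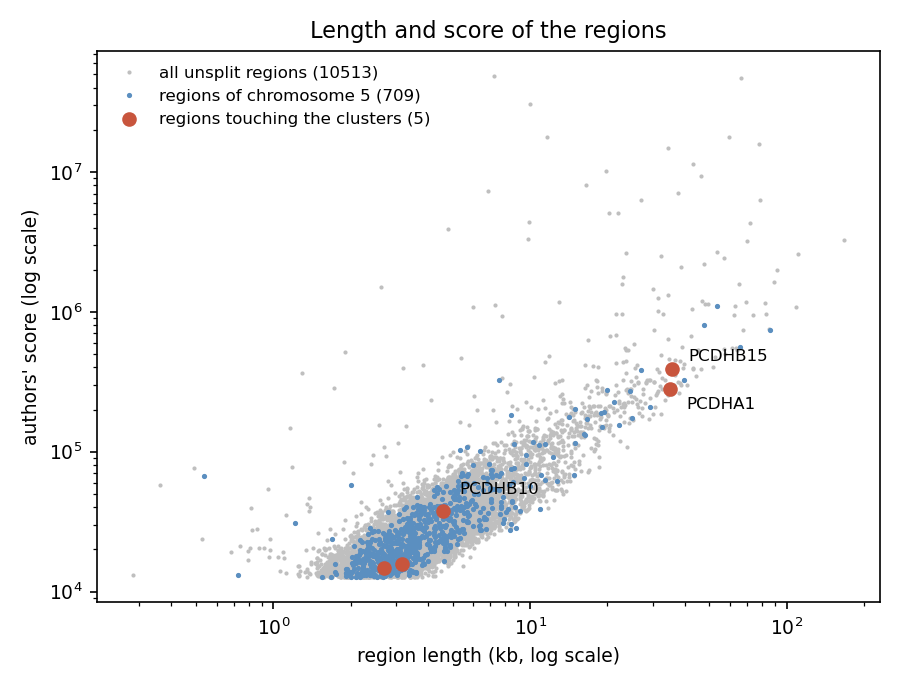
Length in kb and authors' score of each of the 10513 unsplit regions (grey), those of chromosome 5 (blue) and the 5 regions touching the clusters (red), both axes on a log scale. The PCDHA1 and PCDHB15 regions lie at 35.1 and 35.6 kb in the long tail, PCDHB10 at 4.56 kb in the main body, and the 2 unlabelled regions near the lowest scores.

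Regions of this length seldom overlapped protein-coding genes. Of the 94 regions of at least 30 kb on chromosomes 1 to 22, X and Y, 82 (87.2%) overlapped no protein-coding gene and 10 overlapped a zinc finger gene, taken as any symbol with ZNF, ZKSCAN, ZSCAN or ZFP followed by digits. The remaining 2 were the PCDHA1 and PCDHB15 regions. The limit of 30 kb was set after the lengths were seen, and the count depends on it: among the 181 regions of at least 20 kb, 8 overlapped a protein-coding gene and no zinc finger gene, and the others than the protocadherin regions were at KRABD5, LOC124904792, ANKRD30BL, TPTE (by 2 regions) and SDK1, a neuronal adhesion gene. Among 556 regions of at least 10 kb the count was 52, and among 32 of at least 50 kb it was 0. The rule reads symbols only, so a zinc finger gene with another kind of symbol is not counted as such. Whether this applies to KRABD5 or LOC124904792 was not checked. On chromosome 5 the other 5 regions of at least 30 kb all lay between positions 45933037 and 50221982, the stretch that holds the centromere, and overlapped no protein-coding gene. The 2 protocadherin regions were the ones of this length elsewhere on the chromosome.

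**Figure D4:**
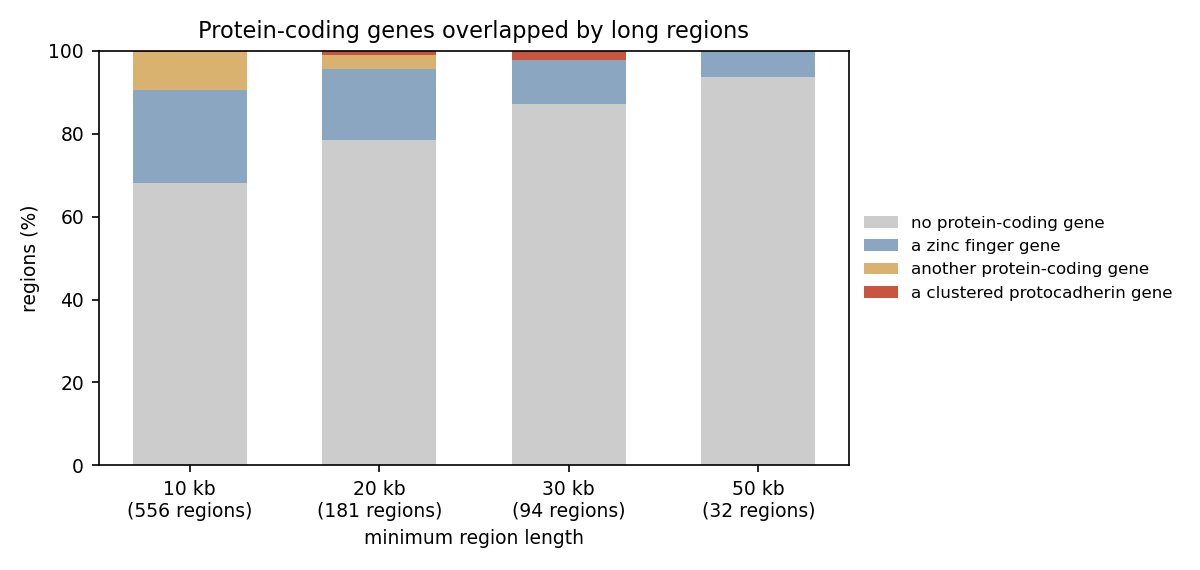
Share of regions in percent that overlap no protein-coding gene, a zinc finger gene, a clustered protocadherin gene or another protein-coding gene, for minimum lengths of 10, 20, 30 and 50 kb. At 30 kb the 2 regions outside the first pair of classes are the protocadherin regions; at 10 kb they are 2 of 52, and at 50 kb there is none.

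The 26 genes with a start window in a region formed a mixed group. Besides PCDHA1 and PCDHB15 it held 6 zinc finger genes, 5 keratin-associated protein genes, which encode hair shaft proteins, and 13 others, among them the olfactory receptor genes OR1L4, OR2L2, OR4Q3 and OR10A3 and the testis gene SOX30. Ordered by the length of the region at the start, PCDHB15 and PCDHA1 came after ZSCAN18 (39.8 kb) and ZNF595 (36.8 kb) and before C19orf18 (23.9 kb). These names were read off after the values were seen. As shares of each family, 2 of 47 clustered protocadherin genes (4.26%), 5 of 80 keratin-associated protein genes (6.25%) and 6 of 477 zinc finger genes (1.26%) had a start window in a region. By gene body the order differed, with 3 of 53 protocadherin genes, 6 of 94 keratin-associated protein genes (6.38%) and 310 of 566 zinc finger genes (54.8%). No test of these differences exists for a single list whose genes sit in arrays.

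Start windows of the members were poor in CG dinucleotides, the sites of DNA methylation. The median over 47 members was 7 per 300 bases, with a range of 2 (PCDHGA4) to 27 (PCDHAC1), against a median of 22 over all 15842 genes, of which the middle range, between the quartiles, was 8 to 32. The subclusters were alike, with medians of 7 in alpha, 7.50 in beta and 7 in gamma. The C-type genes with a window stood at the top of their subclusters, with 27 in PCDHAC1, 15 in PCDHAC2, 18 in PCDHGC3 and 23 in PCDHGC4. Where a gene has several annotated starts the window listed first was counted; 5 gamma genes have more, and a further window of PCDHGB6 holds 25. PCDHA1 had 4 and PCDHB15 had 6, within the range of members outside regions. The 26 genes with a window in a region had a median of 3, with a range of 0 to 37. Low CG counts were thus found in most members whether or not their start lay in a region.

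**Figure D5:**
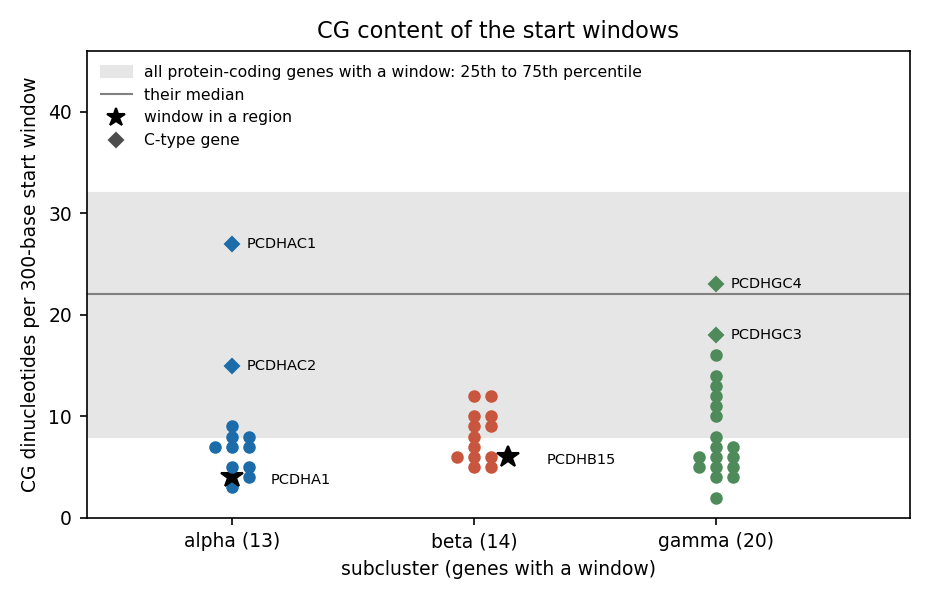
CG dinucleotides per 300-base start window for the 13 alpha, 14 beta and 20 gamma genes with a window; stars are windows in a region, diamonds are C-type genes, and the line and grey band give the median and the 25th to 75th percentile range of all 15842 protein-coding genes with a window. PCDHA1 (4) and PCDHB15 (6) lie among the other genes, and the C-type genes (15 to 27) lie above the rest of their subcluster.

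The letters shared by the promoters were then counted in the same windows. The core CGCT, counted on the gene's strand, was present in 46 of the 47 members, PCDHA9 being the exception, and in 70.5% of all genes with a window. On either strand the counts were 46 of 47 and 84.4%. The longer TGNCGCT, which contains that core, was present on the gene's strand in 30 of 47 members (10 of 13 alpha, 13 of 14 beta and 7 of 20 gamma) and in 9.23% of all genes, and on either strand in 32 of 47 and 16.7%. The still longer ATGNTGNCGCT, which contains both, was present on the gene's strand in 11 members and in 24 genes in all (0.151%), and on either strand in 11 members and 32 genes in all (0.202%). The form ATGATGTCGCT was found in 8 alpha genes and ATGGTGGCGCT in 3 beta genes, PCDHB3, PCDHB14 and PCDHB15. The match began 45 to 88 bases before the start. The longer strings were chosen after the sequences were seen, and a match to letters is a description, not a binding site. TATAAA was present on either strand in 6 of 47 members (12.8%) and 12.4% of all genes, and CCGC in 33 (70.2%) and 86.7%.

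The clusters with 500 kb added on each side held 7 regions, or 4.05 per Mb, against 3.91 per Mb over chromosome 5. In this stretch 2 of 32 other protein-coding genes overlapped a region (6.25%, against 10.5% of all protein-coding genes), TMCO6 upstream of the alpha genes (4.67% of its length) and DIAPH1 downstream of the gamma genes (2.92%). Of the 6 protocadherin pseudogenes inside the clusters only PCDHB19P overlapped a region, the same region that covers PCDHB15.

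Protocadherin genes outside the clusters were read from a fixed list. Of 13 such genes 2 overlapped a region, against 10.5% of all protein-coding genes. A start window lay in a region for 0 of the 11 that have one, against 0.164% of all genes with a window. Counts in a list of this size carry little information. PCDH15, a gene of 1825 kb known for its part in inner ear hair cells, held 6 regions that covered 2.18% of it, the longest 11.8 kb. PCDH9 held 2 regions covering 0.748%. PCDH1 and PCDH12, which also lie on chromosome 5 downstream of the gamma subcluster, were 303 kb and 384 kb from the nearest region.

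Of 14 genes for factors known to act on the clusters, such as CTCF and cohesin subunits, 2 overlapped a region: SETDB1 over 4.85% of its length and STAG1, a cohesin subunit gene, over 2.28%. SMCHD1, the nearest of the factor genes without an overlap, was 4.11 kb from a region, and CTCF was 849 kb from one. Of 6 genes for H3K9 methyltransferases, SETDB1 and SETDB2 overlapped a region, SETDB2 over 5.34% of its length. None of the start windows of these genes, 13 and 6 in number, lay in a region, against 0.164% of all genes with a window. With 10.5% of all genes overlapping a region, counts of 2 in lists of this size carry little information. The same holds for counts of 0 start windows.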

How the data were processed

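CUT&RUN for H3K9me3 in ERH knockdown BJ fibroblasts gave the list used, a headerless table with 6 columns. Bowtie2 2.3.4.1, SAMtools 1.16.1, bedtools 2.27.1, deepTools 3.5.0, R 3.6.3, the peak caller SEACR 1.3 and the build hg38 are named in the submitters' processing notes, without their settings. The threshold, any control library and the rule for merging replicates are not given in the sources used here. The authors deposited a whole-number score per region without a unit, and it was used only to rank and filter regions. The authors deposited another column, a running number; 17 rows above 1 repeat a score and, with the rows they were split from, were left out of score ranks.

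Positions are 1-based. Genes and start windows came from RefSeq (GRCh38.p14). A gene overlapped a region when at least 1 base was shared. Chromosome length was taken to the last gene or region. Everything is a description of 1 pooled list, so no test was run. The members follow a symbol rule that uses no measured value, but the choice of this gene family, the lists and most limits was made with earlier results of these data known. Named genes were mainly the members meeting a region or within 2 kb of one, the first, last and farthest members, and the C-type genes. Neighbours and list genes that overlap a region were named too. Other genes were named outside this rule as landmarks or examples, among them SMCHD1, CTCF, PCDH1 and PCDH12, which overlap no region. Python 3.11.15, numpy 2.4.6, pandas 2.3.3 and matplotlib 3.10.9 were used. The interval arithmetic was tested on simulated data, with 0 mismatches in 500 checks of covered bases and 0 in 500 of distance.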

Additional observations from a re-analysis of the deposited data

How the results depend on the processing

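A minimum length of 2 kb, joining regions within 5 kb, dropping those above 20 score units a base and leaving out split pieces changed no count or covered length in the clusters. Restricting the list to scores from the median upward left 3 regions touching the spans, 1 in alpha and 2 in beta, and 10752 covered bases in the beta span, because the 2 regions that overlap no gene fall away; the 3 overlapping members were counted as before. Adding 50 kb to each side of the spans raised the covered bases to 35102 in alpha, 46027 in beta and 3035 in gamma. It takes in the parts of the long regions outside the alpha and beta spans, and the DIAPH1 region. The alpha share then lies above that of chromosome 5 (10.8% against 1.86%), not below it. On the gamma side the 50 kb stops just short of the PCDHB15 region, so the gamma value also depends on the length added. Requiring 10% of the gene body left 0 alpha members, since the body of PCDHA1 is long. Adding 5 kb to each gene body gave 5 beta members and 6 of the 53 in all, a share close to the 12.4% of all protein-coding genes. The number of long regions with a protein-coding gene and no zinc finger gene was 2 at 30 kb, 52 at 10 kb, 8 at 20 kb and 0 at 50 kb; these limits were added after the data were seen. Ranking regions within chromosome 5 moved 11 of 15 percentiles of length, score and score per base pair by more than their counting interval, and none across the median. Depth is unknown, so regions just below the authors' threshold cannot be told from unmarked chromatin. No paired analysis was possible because 1 group's replicates are merged in the list, and for the same reason no replicate could be left out.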
